A study of Mus musculus with 24 samples.

Results

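The Paneth fraction of small intestinal crypts was compared with the stem cell fraction of the same control mice, across all genes. The members were the 8 libraries whose titles pair a Paneth code with a stem code in the 4 het animals (BN44, BO27, BO58 and BP03), 4 libraries of each fraction, out of 24 libraries of 8 mice in the series. Per the labels, the control mice carried 1 conditional Setd1a allele and 1 wild-type allele (Setd1aFC/+; Lgr5-eGFP-CreERT2), and the knockout mice, used here for 1 closing comparison, carried 2 conditional alleles (Setd1aFC/FC; Lgr5-eGFP-CreERT2). All of them received 1 mg tamoxifen by intraperitoneal injection on each of 3 days in a row, and crypts were dissociated 4 days after induction. The controls are therefore not untreated wild-type mice: both fractions came from animals that carried the recombinase and the heterozygous allele and had received the drug. Cre was tied to Lgr5, so recombination began in Lgr5-expressing crypt base cells. Paneth cells are long-lived, and how far recombination reached the cells of the Paneth fraction was not measured here. Live cells stained for CD24, EpCAM and CD45 were sorted, but the sources used here do not give the gate of each fraction. Age is not given either, and the labels name no batch.

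Crypts are the pockets of the intestinal lining in which new epithelium is made. Lgr5-expressing stem cells at the crypt base divide and feed the transit-amplifying zone, while Paneth cells sit between them, pack antimicrobial peptides into granules and present Wnt, EGF and Notch ligands to their neighbours. Enteroendocrine cells (hormone producers), tuft cells (chemosensory cells that make lipid mediators and interleukin 25) and goblet cells (mucus producers) are the other secretory lineages. CD24, the surface antigen used in the sort, is carried by Paneth cells and also by enteroendocrine and tuft cells.

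Depth was 24726282 to 32387488 counts in the Paneth libraries and 28194410 to 47052856 counts in the stem libraries. On the leading axis of the 8 libraries, which held 63.4% of the variance, the fractions separated with no overlap. The next axis (10.96%) placed the BO27 and BO58 Paneth libraries at opposite ends. The BO58 Paneth library stood apart in content: alpha-defensins took 3.11% of its counts, against 32.6% in BN44, 18.1% in BO27 and 20.6% in BP03, and 0.0456% to 0.169% in the stem libraries. The BN44 stem library stood apart in hormone and immediate early RNA (values below). Levels are in CPM, the counts scaled to a common library total with TMM factors over the 8 libraries, and are listed in the order BN44, BO27, BO58, BP03. Mitochondrially encoded genes took 4.37% to 11.5% of counts in Paneth and 10.7% to 17.2% in stem libraries, and pseudogenes 3.05% to 5.09% against 8.51% to 9.50%. These are shares of all counts, so they also depend on the share of defensins and granule products. In the BO58 Paneth library, the lowest in defensins, they were 11.5% and 5.09%. The cause of the differences was not tested. Granule products took 6.69% to 19.3% of Paneth counts, against 0.240% to 0.433% in stem libraries. In these bulk libraries, fewer cells of a type and less RNA per cell cannot be told apart.

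Some of the antimicrobial peptide genes that were abundant in the Paneth libraries have nearly the same DNA in front of their start sites, and the sequences are shown because single values of such genes rest on near copies. The 100 bases before the start are printed from RefSeq (GRCm38.p6), 5′ to 3′ on the gene's strand, with TATAAA (the core of a TATA box) and ATCAAAG (the reverse complement of CTTTGAT, a TCF/LEF binding word) in capitals. Lyz1 and Mmp7, granule genes of other families, are shown for contrast.
Defa20, chr8:21509158-21509257, plus strand: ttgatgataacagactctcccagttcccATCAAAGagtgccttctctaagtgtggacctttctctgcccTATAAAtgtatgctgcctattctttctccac
Defa21, chr8:21025445-21025544, plus strand: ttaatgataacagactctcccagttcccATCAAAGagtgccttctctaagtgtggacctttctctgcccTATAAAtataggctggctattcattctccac
Defa23, chr8:21054940-21055039, plus strand: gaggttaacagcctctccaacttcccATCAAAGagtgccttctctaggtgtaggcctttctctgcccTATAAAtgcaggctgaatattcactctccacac
Defa30, chr8:21134550-21134649, plus strand: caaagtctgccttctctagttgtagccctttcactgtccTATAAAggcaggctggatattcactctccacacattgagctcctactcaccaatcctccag
Lyz1, chr10:117292869-117292968, minus strand: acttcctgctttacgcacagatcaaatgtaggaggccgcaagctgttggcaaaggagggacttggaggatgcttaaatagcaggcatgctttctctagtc
Mmp7, chr9:7691990-7692089, plus strand: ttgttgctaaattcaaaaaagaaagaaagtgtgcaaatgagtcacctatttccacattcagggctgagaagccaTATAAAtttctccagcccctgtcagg

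The windows of Defa20 and Defa2 were identical over 100 bases, as were those of Defa21 and Defa22, and these pairs differed from each other at 5 of the 100 positions (95 identical). In the 250 bases before the start, on either strand, CTTTGAT was found in 12 of 12 alpha-defensin promoters and TATAAA in 11 of 12. Of the other words searched, CAGATG (an E-box word) was found in 11 of 12 and ATGCAAAT in 0 of 12. Of all 10322 promoters of tested genes with an entry, 2.36% held CTTTGAT, 6.81% held TATAAA, 9.78% held CAGATG and 1.40% held ATGCAAAT. Compared position by position with no gaps, the windows were near-identical within 3 groups (Defa2, Defa20, Defa21 and Defa22 at 95 to 100 of 100 bases, Defa23 and Defa31 at 100, and Defa35, Defa36 and Defa37 at 96 to 100). All other pairs matched at 18 to 35 of the 100 positions, a count that a shift of the start between genes can lower. Since some of the promoters are near copies, these are not 12 separate occurrences. Only 12 of the 29 tested alpha-defensin genes had a promoter entry. A match is a description of the letters and says nothing of binding.

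Of 16230 genes tested, 2497 (15.4%) were higher and 1694 (10.4%) lower in the Paneth fraction at an edgeR adjusted p below 0.05 (quasi-likelihood F test with the animal as block, Benjamini-Hochberg adjustment). The higher calls were larger: their median log2 fold change was 2.16, and 805 were at least 16-fold, while the lower calls had a median of -1.21 and 53 were at least 16-fold. All 4 Paneth libraries lay above all 4 stem libraries for 3075 genes (18.9%) and below them for 2483 (15.3%). The median log2 fold change of all genes tested was -0.01. These counts depended on the animals: 1509 higher and 589 lower without BN44, 1638 and 851 without BO27, 2285 and 1792 without BO58, and 1616 and 797 without BP03. With 1 fit of all 24 libraries they rose to 3785 and 3307. The plot of fold change against mean level shows where the gene groups described here lie.

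**Figure D1:**
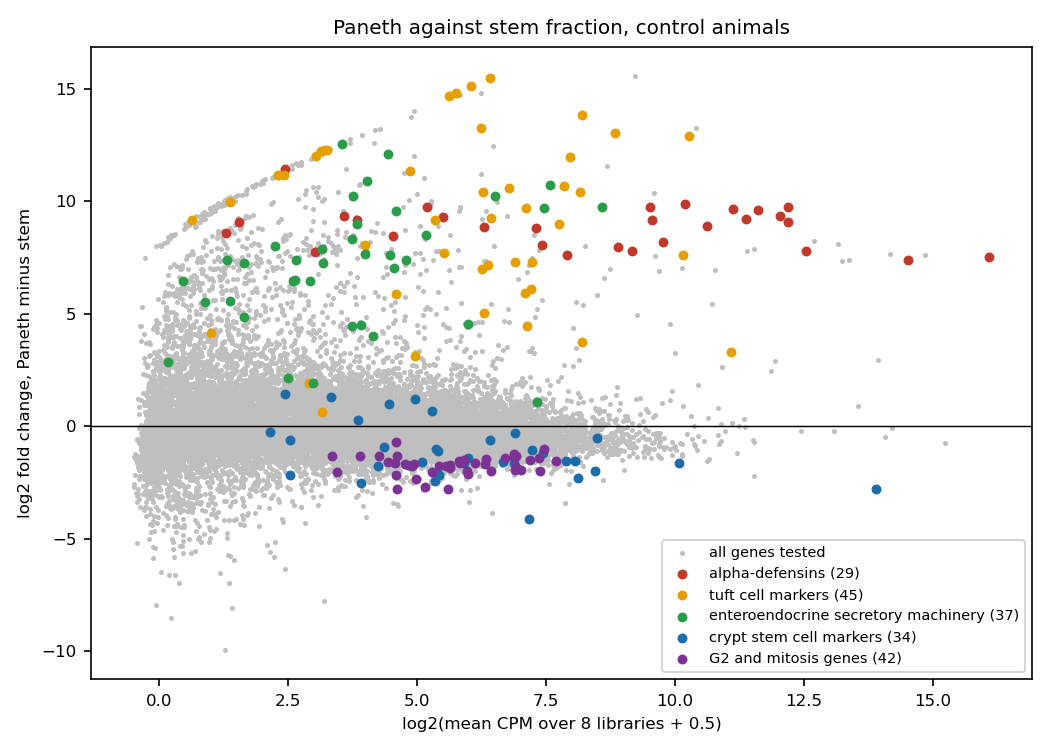
Log2 fold change (Paneth minus stem) against mean log2 level for the 16230 genes tested, 1 point per gene, with members of 5 gene lists in colour and all other genes in grey. A gene of several lists has the colour of the last one in the legend. Alpha-defensins, tuft cell markers and enteroendocrine secretory machinery mostly lie far above 0, and crypt stem cell markers and G2 and mitosis genes mostly lie below it.

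Granule products of Paneth cells were far higher in the Paneth fraction. Of 27 genes of this list tested, 24 rose and 0 fell, with a median log2 fold change of 7.08 against -0.01 for all genes tested. Lyz1 (chr10:117287797-117292868, minus strand), the lysozyme that cleaves bacterial cell walls, stood at 99428, 40923, 29554 and 64881 CPM in the Paneth libraries and 142, 175, 544 and 398 CPM in the stem libraries. All 4 Paneth values were above all 4 stem values (log2 fold change 7.61, SE 0.75, edgeR adjusted p = 0.00120). Mmp7 (chr9:7692090-7699585, plus strand), the matrix protease that activates alpha-defensin precursors, stood at 5809, 2712, 1184 and 4318 CPM in the Paneth libraries and 11.8, 20.1, 32.2 and 41.1 CPM in the stem libraries (log2 fold change 6.97, SE 0.69, edgeR adjusted p = 0.00124). The groups were again fully apart. Itln1, a lectin that binds microbial sugars, ranged from 14882 to 55851 CPM against 49.3 to 315 CPM (log2 fold change 7.65, SE 0.87, edgeR adjusted p = 0.00189). Ang4, an antimicrobial ribonuclease, ranged from 3152 to 18163 CPM against 7.84 to 103 CPM, and Pla2g2a, a phospholipase that attacks bacterial membranes, from 168 to 1260.3 CPM against 4.11 to 8.59 CPM. Their log2 fold changes were 8.24 and 6.99. The pentraxin gene Mptx2 was measured at 18836, 20319.7, 1764 and 32479 CPM and Mptx1 at 116, 119, 11.7 and 194 CPM in the Paneth libraries, so the mean Paneth levels per length were 23111 and 138 CPM per kb. Their log2 fold changes were 8.12 and 7.83.

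The granule genes did not all move to the same extent. Ang, a ribonuclease made by many cells, rose by 1.58 on the log2 scale (SE 0.28, edgeR adjusted p = 0.00848). Reg3g, a C-type lectin against Gram-positive bacteria, rose by 2.89 (SE 0.46, edgeR adjusted p = 0.00568), and its groups overlapped, since the BO58 Paneth library (636 CPM) was below the BN44 and BP03 stem libraries. Its relative Reg3b did not pass (1635, 903, 103 and 3309 CPM in the Paneth libraries and 489, 403, 147 and 712 CPM in the stem libraries, edgeR adjusted p = 0.0934). Dmbt1, a mucosal scavenger receptor, had 302 to 634 against 300.1 to 470.5 CPM (log2 fold change 0.20, edgeR adjusted p = 0.471). Fabp6, the ileal bile acid binding protein, was high in 1 Paneth library only (0.565, 1.18, 0.429 and 27.2 CPM) and did not pass (edgeR adjusted p = 0.122). The summed level of the list in the BO58 Paneth library was the lowest of the 4, at 294011, 1.64e+05, 59169 and 250128 CPM in the order of animals, against 2012, 1909.6, 2317 and 3837 CPM in stem libraries.

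Alpha-defensins, the cryptdin peptides that Paneth cells release into the crypt, rose in every gene tested. The table held 39 genes and pseudogenes of the family, 29 were tested and 29 of 29 rose, with a median log2 fold change of 9.07. The other 10 had too few counts for the test, among them Defa25 and 9 pseudogenes. A member near 0 in the stem libraries could enter the test only through its Paneth counts. The share that rose was thus set in part by the filter. With no filter on low counts, 32 of 37 rose and 0 fell. Defa24 (chr8:21734494-21735471, plus strand) was the most abundant, at 252087, 134014, 17026 and 153005 CPM in the Paneth libraries and 222, 499.9, 815 and 997 CPM in the stem libraries (log2 fold change 7.54, SE 1.10, edgeR adjusted p = 0.00442). The next was Defa30 (chr8:21134642-21135598, plus strand), with 4817 to 87970.1 against 74.0 to 334 CPM (log2 fold change 7.40, SE 1.13, edgeR adjusted p = 0.00508). Every tested defensin had all 4 Paneth libraries above all 4 stem libraries, and in every tested defensin the BO58 Paneth library was the lowest of the 4. Levels in the stem libraries ran from 0 counts in all 4 for 1 tested pseudogene, Defa-ps10, named after its values were seen, to 222 to 997 CPM for Defa24. Defa28 (54.4, 19.4, 1.47 and 17.3 CPM against 0, 0.0401, 0 and 0.0944 CPM) and Defa37 (174, 41.0, 8.62 and 63.6 CPM against 0.136, 0, 0.0590 and 0.126 CPM) were examples at the low end.

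The values of single defensins are uncertain because reads can be split among copies. Of the 75-base words in their GENCODE transcripts, 93.3% of those of Defa24 and 79.3% of those of Defa30 occurred in no other gene's transcripts. The share of unique words was 43.6% for Defa21 and 8.67% for Defa17, and 0% for Defa2, Defa20, Defa31, Defa32, Defa33 and Defa37. The counting command did not ask for fragments with several reported positions, and genes with no unique word still had counts. How fragments of the copies were assigned is therefore uncertain. Lyz1 had 93.8% unique words, sharing the others with Lyz2, while Mmp7 and Itln1 had 100%. Within this limit the family spanned a wide range per length in the Paneth libraries: 331821 CPM per kb for Defa24, 116573 for Defa30, 22199 for Defa21, 8399.6 for Defa5, 834 for Defa31 and 57.8 for Defa28.

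**Figure D2:**
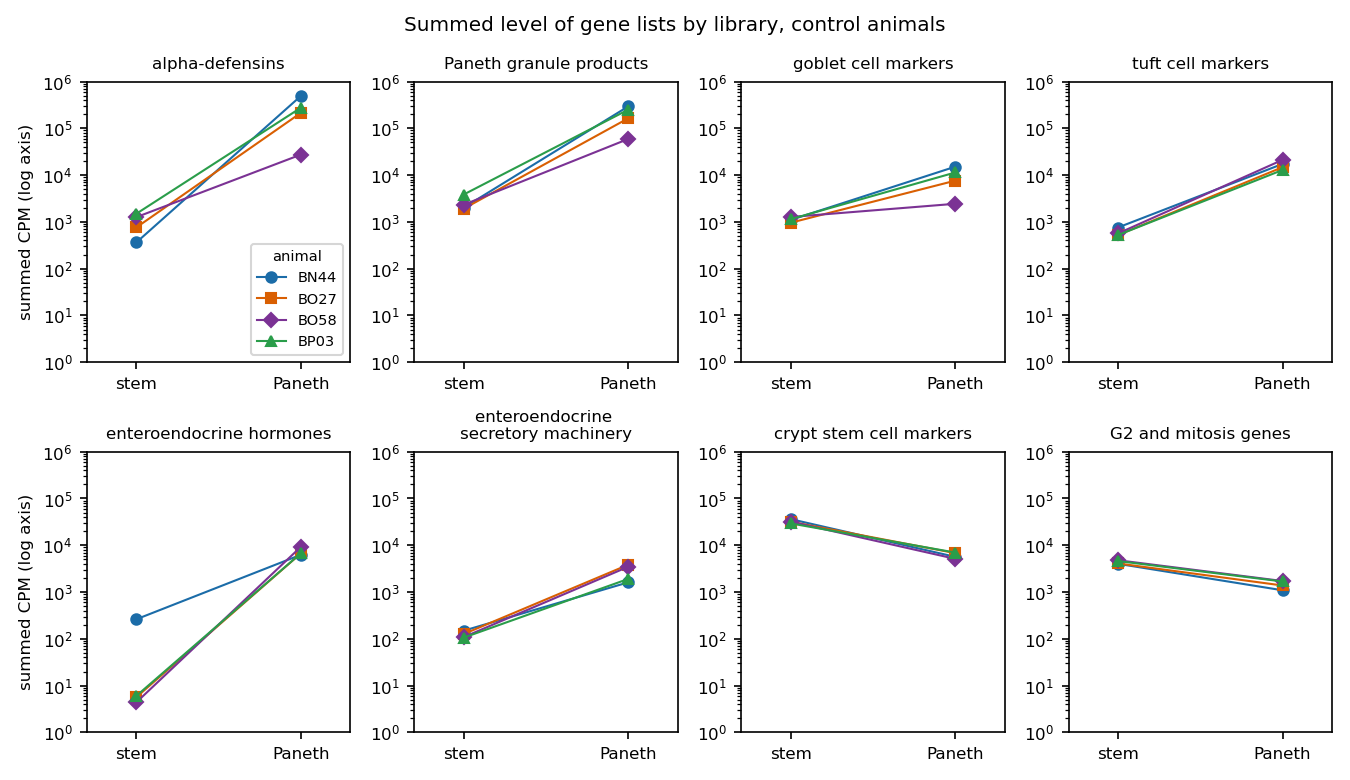
Summed CPM of 8 gene lists in each library (log axis), 1 point per library with a line joining the Paneth and stem libraries of 1 animal. The BO58 line is the lowest of the 4 in the Paneth fraction for alpha-defensins, granule products and goblet markers and the highest for hormones, while the BN44 stem library is the highest stem point for hormones.

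Transcription factors that drive the secretory lineages rose. Of 20 tested, 11 rose (55%, against 15.4% of all genes) and 0 fell (median log2 fold change 1.35). Atoh1, the factor that commits crypt cells to a secretory fate, stood at 73.8, 37.9, 8.83 and 56.2 CPM in the Paneth libraries and 2.18, 4.25, 2.18 and 9.00 CPM in the stem libraries (log2 fold change 3.19, SE 0.52, edgeR adjusted p = 0.00609). Its BO58 Paneth value lay below the highest stem value, and the other 3 lay above. Bhlha15, which enlarges the secretory apparatus, had 5.08 to 49.8 against 0.0295 to 1.32 CPM (log2 fold change 5.45, SE 0.65, edgeR adjusted p = 0.00217). Spdef, a goblet and Paneth maturation factor, rose by 3.73 on the log2 scale, Klf4 by 3.09, Creb3l4 by 2.26, Creb3l1 by 2.44, Foxa1 by 1.97 and Foxa3 by 1.74. Sox9, which Paneth cells need to form, had 292, 279.6, 119.8 and 207 CPM against 80.4, 73.0, 120.2 and 95.2 CPM (log2 fold change 1.24, SE 0.34, edgeR adjusted p = 0.0373), and BO58 showed no difference. Xbp1, the regulator of secretory capacity, rose by 1.06 and Cdx1 by 0.86. Gfi1, which steers secretory cells away from the endocrine fate, had 6.31, 5.75, 0.608 and 6.59 CPM against 0.153, 0, 0.206 and 1.42 CPM and did not pass (edgeR adjusted p = 0.0719). Sox4, Foxa2, Nr5a2, Hnf4g, Cdx2, Elf3, Mecom and Gata4 also did not pass. The number of factors called higher was 8 without BN44 or BO27, 11 without BO58 and 6 without BP03. Left with 3 animals, the test no longer called Foxa3 (0.0814), Sox9 (0.138) and Cdx1 (0.0794) without BN44, BO27 or BP03, Creb3l1 (0.0506) and Xbp1 (0.0791) without BP03 (highest edgeR adjusted p in parentheses).

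Genes of the endoplasmic reticulum and the unfolded protein response, which fold and check secreted proteins, rose in part. Of 39 tested, 14 rose (35.9%, against 15.4% of all genes) and 0 fell (median log2 fold change 0.63). Edem1, which sends misfolded glycoproteins for degradation, had 37.8 to 113 against 11.4 to 21.3 CPM (log2 fold change 2.31, SE 0.29, edgeR adjusted p = 0.00267). Syvn1, a ubiquitin ligase of the same route, had 12.4 to 24.4 against 3.77 to 4.40 CPM (log2 fold change 2.21, SE 0.30, edgeR adjusted p = 0.00330). Sec11c, a signal peptidase subunit, rose by 1.27. Of the sensors, Atf6 rose by 1.46, Ern1 by 1.95 and its epithelial relative Ern2 by 3.02, whereas Eif2ak3 (log2 fold change 0.80, edgeR adjusted p = 0.133) did not pass. Hspa5, the abundant chaperone of the compartment, was at 809, 423, 678 and 689 CPM against 748, 496, 578 and 648 CPM, with overlapping groups (log2 fold change 0.05, edgeR adjusted p = 0.859). Calls lost with 1 animal left out were Ern2 (0.0891) without BN44 or BO27 (highest edgeR adjusted p in parentheses).

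Ligands and surface signals of the crypt, among them some by which Paneth cells are known to support stem cells, were next. Of 26 ligands and surface signals in the list, 16 had enough counts for the test, 6 rose and 1 fell. These were 37.5% and 6.25% of those tested, against 15.4% and 10.4% of all genes. Without Cd24a, an antigen of the sort, 5 of 15 rose and 1 fell. Wnt3 (chr11:103774150-103817957, plus strand), the Wnt ligand that Paneth cells supply, stood at 57.3, 47.5, 16.9 and 31.7 CPM in the Paneth libraries and 2.01, 1.20, 1.15 and 0.126 CPM in the stem libraries (log2 fold change 5.24, SE 0.62, edgeR adjusted p = 0.00217). The groups did not overlap, and BO58 was the lowest Paneth library. Egf had 10.2, 4.48, 12.3 and 7.91 CPM against 1.18, 0.0401, 0.383 and 0.881 CPM (log2 fold change 4.28, SE 0.74, edgeR adjusted p = 0.00770), also fully apart. The Notch ligand Dll4 had 17.9, 19.6, 13.7 and 17.0 CPM against 2.49, 1.84, 3.89 and 2.45 CPM (log2 fold change 2.72, SE 0.38, edgeR adjusted p = 0.00380), the most even values of these ligands. The Notch ligand Dll1 had 32.3, 38.0, 18.6 and 27.5 CPM against 18.0, 17.1, 25.3 and 17.8 CPM and did not pass (log2 fold change 0.55, edgeR adjusted p = 0.219). The EGF receptor ligand Tgfa also did not pass (log2 fold change 0.80, edgeR adjusted p = 0.154), nor did the Notch ligand Jag1 (-0.62, edgeR adjusted p = 0.325). Bmp2, a differentiation signal, had 7.94 to 22.1 against 0.903 to 3.37 CPM (log2 fold change 2.74, SE 0.54, edgeR adjusted p = 0.0120), and Efnb2, a ligand for Eph receptors that position crypt cells, had 22.3 to 44.1 against 2.18 to 6.29 CPM (log2 fold change 3.34, SE 0.28, edgeR adjusted p = 0.000650). Cd24a had 4617, 3749, 4502 and 2936 CPM in the Paneth libraries and 552, 304, 396 and 335 CPM in the stem libraries (log2 fold change 3.33), but it encodes an antigen stained for the sort, so this difference is no finding.

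Most other ligands were low or did not pass. Wnt6, Wnt11, Wnt2b, Rspo1 and Rspo3 were below 1 CPM in all 8 libraries and were not tested. Wnt9b and Wnt5a were tested at low levels and did not pass. Areg was at 85.2, 2.05, 1.86 and 2.71 CPM in the stem libraries, high in BN44 alone, and at 4.66, 2.67, 0.179 and 1.45 CPM in the Paneth libraries (edgeR adjusted p = 0.129). Hbegf was the ligand that fell: it was at 179, 16.6, 19.8 and 19.8 CPM in the stem libraries and 24.2, 10.2, 7.40 and 13.8 CPM in the Paneth libraries (log2 fold change -1.37, SE 0.41, edgeR adjusted p = 0.0478). Its level in the BN44 stem library was far above the others, and the groups overlapped through BN44 Paneth. Btc was lower in 4 of 4 animals without passing (edgeR adjusted p = 0.178), and so was Ihh (edgeR adjusted p = 0.176). With 1 animal left out the test no longer called Hbegf (0.166) without any 1 animal (highest edgeR adjusted p in parentheses).

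**Figure D3:**
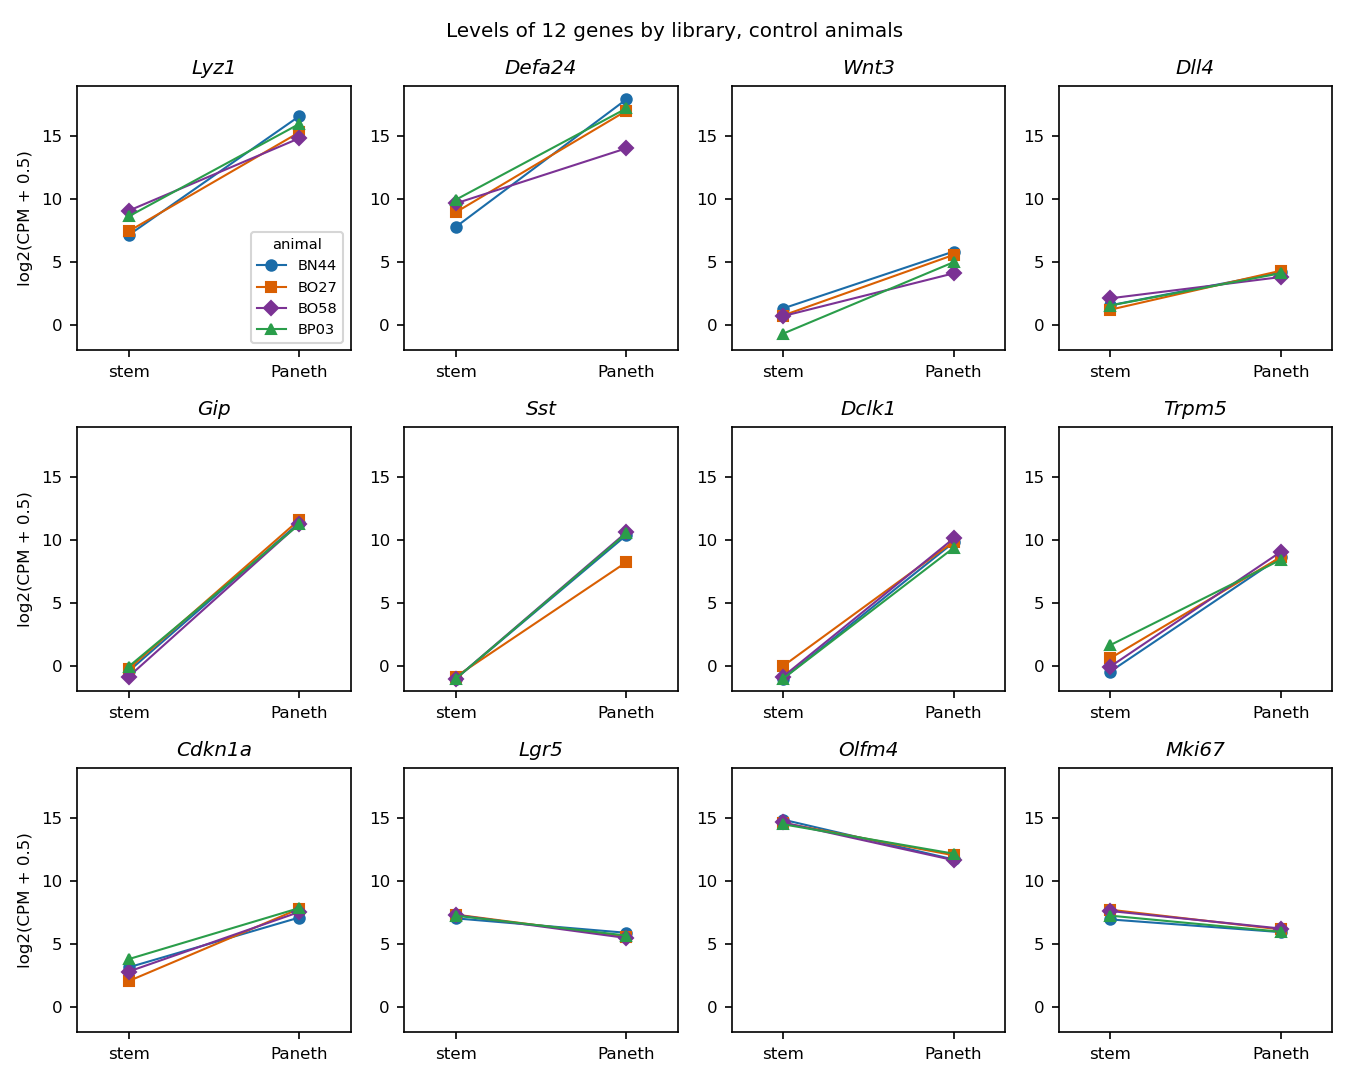
Levels of 12 genes in each library as log2(CPM + 0.5), 1 point per library with a line joining the Paneth and stem libraries of 1 animal. Lines for Lyz1, Defa24, Wnt3, Dll4, Gip, Sst, Dclk1, Trpm5 and Cdkn1a rise from stem to Paneth in all 4 animals, and those for Lgr5, Olfm4 and Mki67 fall in all 4.

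Most receptors for these ligands did not pass the test, as was so for 12039 of all 16230 genes tested. Of 24 receptors tested, 1 rose and 4 fell (4.17% and 16.7%, against 15.4% and 10.4% of all genes). Their median log2 fold change was -0.07. Lgr5 (chr10:115450311-115587780, minus strand), the R-spondin receptor that marks crypt base stem cells, had 59.7, 48.0, 44.7 and 51.3 CPM in the Paneth libraries and 133, 164, 160.4 and 154 CPM in the stem libraries. The groups were fully apart, and Lgr5 RNA was still present in every Paneth library (log2 fold change -1.59, SE 0.19, edgeR adjusted p = 0.00240). The mice carry eGFP under Lgr5, and the sources used here do not say whether it was gated on. If it was, Lgr5 was selected on as Cd24a was, and its difference is no finding. Its relative Lgr4, which is found across the crypt, had 212, 149, 78.8 and 194 CPM against 119, 103, 97.7 and 128 CPM and did not pass (log2 fold change 0.42, edgeR adjusted p = 0.214). Rnf43, the ubiquitin ligase that removes Wnt receptors, had 12.6 to 20.9 against 32.7 to 67.0 CPM (log2 fold change -1.59, SE 0.24, edgeR adjusted p = 0.00474), while its partner Znrf3 did not pass (log2 fold change 0.27). Rgmb, a BMP co-receptor, fell by 1.16 on the log2 scale, and Lrig1, which restrains ERBB receptors, fell by 1.00. The Wnt receptors Fzd5, Lrp6 and Ryk had log2 fold changes of 0.37, 0.35 and 0.11 and did not pass. Fzd7 (-1.36, edgeR adjusted p = 0.0848), Egfr (-0.83, edgeR adjusted p = 0.0649) and Erbb2 (-1.01, edgeR adjusted p = 0.0766) had all 4 Paneth values below all 4 stem values and did not pass either. Notch1 was at 1.46, 3.26, 1.64 and 2.77 CPM against 2.198, 3.19, 2.98 and 3.15 CPM. Kit, a receptor tyrosine kinase known from some secretory crypt cells, was the receptor that rose, with 125, 84.6, 67.4 and 73.7 CPM in the Paneth libraries and 5.35, 6.34, 8.82 and 4.94 CPM in the stem libraries (log2 fold change 3.78, SE 0.31, edgeR adjusted p = 0.000643). Among these genes, the calls lost on leaving out an animal were Lrig1 (0.0613) without BN44 or BO27 (highest edgeR adjusted p in parentheses).

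Crypt stem cell markers were lower in the Paneth fraction. Of 34 tested, 22 fell and 2 rose, with a median log2 fold change of -1.47. Olfm4, a secreted glycoprotein and the most abundant of the markers, had 3414, 4296, 3279 and 4695 CPM in the Paneth libraries and 30639, 25462, 26144 and 23739 CPM in the stem libraries (log2 fold change -2.77, SE 0.30, edgeR adjusted p = 0.00167). The groups were fully apart, and Olfm4 was still abundant in every Paneth library. Ascl2, the transcription factor that maintains stem cell identity, had 26.4, 24.7, 32.1 and 32.6 CPM against 113, 113, 65.6 and 71.9 CPM (log2 fold change -1.61, SE 0.27, edgeR adjusted p = 0.00655). Smoc2, a matrix protein, had 103 to 163 against 300.3 to 495 CPM (log2 fold change -1.53, SE 0.24, edgeR adjusted p = 0.00514). Gkn3 fell most, at 7.91, 38.0, 13.3 and 11.7 CPM against 126, 271, 332 and 356 CPM (log2 fold change -4.10, SE 0.39, edgeR adjusted p = 0.00106). Slc14a1, a urea transporter, fell by 2.44, Igfbp4 by 2.17, Clca3b by 1.98 and Tnfrsf19 by 1.69 on the log2 scale. The 2 that rose were Msi1 and Bmi1, chosen for mention after their values were seen. Msi1, an RNA-binding protein, rose by 1.45 and Bmi1, a Polycomb protein, by 0.68. Counted over 3 animals, 19 to 23 markers fell, and 0 rose without BN44, BO27 or BP03, against 4 without BO58. Leaving an animal out ended the calls of Tnfrsf19 (0.0530) without BP03, Msi1 (0.130) without BN44, BO27 or BP03, Bmi1 (0.153) without any 1 animal (highest edgeR adjusted p in parentheses).

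Wnt target genes did not move in 1 direction: of 18 tested, 4 rose and 7 fell (median log2 fold change -0.75). These were 22.2% and 38.9%, against 15.4% and 10.4% of all genes. Axin2, the general target, was at 16.5, 23.0, 4.86 and 14.6 CPM against 18.8, 27.3, 31.0 and 24.6 CPM, lower in 4 of 4 animals and not past the test (edgeR adjusted p = 0.168). Myc, the growth regulator, had 39.97 to 45.8 against 97.2 to 279 CPM (log2 fold change -1.90, SE 0.29, edgeR adjusted p = 0.00513), and Sp5, a repressor, fell by 2.13. Among those that rose, Nkd1, a negative regulator of Wnt signalling, had 11.3, 16.8, 9.80 and 10.2 CPM against 4.99, 3.29, 0.590 and 1.04 CPM (log2 fold change 2.69, SE 0.56, edgeR adjusted p = 0.0141). Prox1, a factor also known from enteroendocrine and tuft cells, had 38.6 to 53.6 against 0.477 to 4.88 CPM (log2 fold change 4.72, SE 0.63, edgeR adjusted p = 0.00339). The other 2 that rose were Sox9, described above, and Dkk3, which had 0 counts in the 4 stem libraries and was at least 117-fold higher. Dkk3 was chosen for mention after its values were seen. The list's median ranged from -0.89 without BP03 to -0.41 without BO58. Left with 3 animals, the test no longer called Sp5 (0.107) and Sox9 (0.138) without BN44, BO27 or BP03, Nkd1 (0.0554) without BP03 (highest edgeR adjusted p in parentheses).

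In the Notch pathway, by which neighbouring crypt cells settle secretory against absorptive fate, 2 of 18 tested genes rose (Dll4 and Jag2) and 1 fell. These shares, 11.1% and 5.56%, were below the 15.4% and 10.4% of all genes. The target Hes1 fell in 4 of 4 animals, at 38.7, 33.9, 24.2 and 40.9 CPM against 134, 200.2, 51.3 and 145 CPM (log2 fold change -1.81, SE 0.26, edgeR adjusted p = 0.00430). Jag2 was at 3.25, 6.02, 6.29 and 5.84 CPM against 0, 0.521, 0 and 0.944 CPM (log2 fold change 5.17, SE 1.43, edgeR adjusted p = 0.0373). Notch1 and Notch2 did not pass (edgeR adjusted p = 0.593 and 0.569), and Notch3 had too few counts. Calls lost with 1 animal left out were Jag2 (0.0882) without BN44, BO27 or BO58 (highest edgeR adjusted p in parentheses).

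Hormone genes of enteroendocrine cells were among the genes of largest change in the Paneth fraction. Of 14 tested, 12 rose and 1 fell (median log2 fold change 8.87). The median was 11.28 without BN44, 8.15 to 9.23 without each of the others, 7.84 without the animal block, 7.93 with limma voom and 9.71 with DESeq2. Hormone genes near 0 in the stem libraries could enter the test only through their Paneth counts. With no filter on low counts, 13 of 19 hormone genes rose and 1 fell. Gip (chr11:96024545-96030831, plus strand), the glucose-dependent insulinotropic peptide of K cells, was even across the animals, at 2692, 3169, 2553 and 2468 CPM against 0.256, 0.361, 0.0590 and 0.472 CPM (log2 fold change 13.28, SE 0.57, edgeR adjusted p = 8.58e-05). Sst (chr16:23889573-23890958, minus strand), somatostatin, had 1363, 308, 1595 and 1501 CPM, with BO27 the lowest, against 3 counts in all stem libraries (70719.6-fold, 95% counting interval 24198 to 342931, edgeR adjusted p = 0.000179). Ghrl, the hunger hormone ghrelin, had 532, 724, 597 and 1437 CPM against 0.579, 0.0201, 0.501 and 0 CPM (log2 fold change 11.57, SE 1.09, edgeR adjusted p = 0.00106). All 4 Paneth libraries held more of these hormones than any stem library. Cck (cholecystokinin) had 158, 427, 329.9 and 281 CPM against 25.3, 1.04, 0.177 and 0.0315 CPM, and Gcg, the glucagon precursor of L cells, had 1052, 1179, 3418 and 342 CPM against 213, 0.100, 0 and 0.724 CPM. The BN44 stem library was the highest stem library for both, and for both it was still below every Paneth library. Cck lost its call without BO27 or BO58 (highest edgeR adjusted p = 0.0598). Sct (secretin) rose by 6.87, Tac1 (substance P) by 7.37, Tph1 (serotonin synthesis) by 9.24 and Ucn3 (urocortin 3) by 7.61.

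Single hormones varied between animals within the Paneth fraction far more than Gip did. Tph1 was at 82.3, 258, 264 and 7.25 CPM and Tac1 at 15.6, 309, 282 and 36.6 CPM, so for both BO27 and BO58 were high. Gcg was highest in BO58 and lowest in BP03. Pyy (peptide YY) was at 0.707, 3.94, 2.68 and 132 CPM, high in BP03 alone, with 0 counts in the stem libraries, and it was at least 1961-fold higher over the groups. Iapp (amylin), at 112, 4.44, 233 and 100 CPM and also at 0 in stem libraries, was at least 6964-fold higher. Nts (neurotensin) was at 72.6, 3.26, 0 and 23.7 CPM and had too few counts for the test. Insl5, Vip, Trh and Fgf15 were below 1 CPM in all 8 libraries. Nmb did not pass (edgeR adjusted p = 0.145). Adm (adrenomedullin), made by many cell types, was the member that fell, at 8.06, 0.181, 0.0358 and 0 CPM against 17.5, 1.56, 0.560 and 1.10 CPM (log2 fold change -3.04, SE 0.89, edgeR adjusted p = 0.0442). The summed hormone level was 6299.8, 6789, 9373 and 6808 CPM in Paneth and 263, 5.69, 4.42 and 6.07 CPM in stem libraries. With 3 animals, 9 to 12 hormones were called higher. With 1 animal left out the test no longer called Tac1 (0.0634) without BO58, Gcg (0.111) without BO27, BO58 or BP03, Adm (0.115) without any 1 animal (highest edgeR adjusted p in parentheses).

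Transcription factors of the enteroendocrine lineage rose with them: 18 of 21 tested rose and 0 fell (median log2 fold change 7.80, or 7.60 with genes at 0 in stem libraries at their lower bound). Factors near 0 in the stem libraries could enter the test only through their Paneth counts. With no filter on low counts, 18 of 22 rose and 0 fell. Neurog3, the transient factor of endocrine progenitors, had 2.07, 20.6, 21.2 and 9.31 CPM against 0, 0.963, 0.383 and 1.89 CPM (log2 fold change 4.65, SE 0.89, edgeR adjusted p = 0.0110). Neurod1, which follows it, had 105, 256, 227 and 123 CPM against 6.83, 0.120, 1.06 and 0 CPM (log2 fold change 8.01, SE 1.37, edgeR adjusted p = 0.00744). BN44 was the lowest Paneth and the highest stem library for Neurod1. Nkx2-2, Insm1, Pax6, Isl1 and Rfx6 rose by 7.80, 7.81, 6.20, 9.57 and 7.09 on the log2 scale. St18 (9.57) and Myt1 (9.05), zinc finger factors of endocrine cells, rose too. Fev, a serotonergic factor, had 7.68 to 36.1 CPM, and Hhex, a factor of somatostatin cells in the pancreas, had 9.36 to 38.2 CPM, each below 1 CPM in all stem libraries. Lmx1a had 8.15, 20.4, 8.65 and 0.0879 CPM in the Paneth libraries and 0 counts in stem libraries, and did not pass the filter on low counts. Mnx1, Pdx1 and Sox4 did not pass. Among these genes, the calls lost on leaving out an animal were Neurog3 (0.0504) without BO58 (highest edgeR adjusted p in parentheses).

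The dense-core granule machinery of endocrine cells rose for 35 of 37 tested genes, and 0 fell (median log2 fold change 7.40). A member near 0 in the stem libraries could enter this test, too, only through its Paneth counts. With no filter on low counts, 37 of 40 rose and 0 fell. Chga, the granin used as a general endocrine marker, had 120.3, 411, 159 and 37.6 CPM against 0.0341, 0.0602, 0 and 0.472 CPM (log2 fold change 10.26, SE 1.17, edgeR adjusted p = 0.00189). Chgb had 414, 1376, 882 and 379 CPM against 6.59, 1.04, 0.383 and 0.0629 CPM (log2 fold change 9.76, SE 1.18, edgeR adjusted p = 0.00239). For both granins BO27 was the highest and BP03 the lowest Paneth library. Scg3, a granule sorting protein, was at 29.6, 49.4, 56.5 and 33.9 CPM against 1 count in all stem libraries (7546-fold, 95% counting interval 1354 to 298136, edgeR adjusted p = 0.000100). Pcsk1, the convertase that cuts prohormones, had 48.6, 146, 179.7 and 112 CPM against 2.83, 6.68, 2.27 and 8.97 CPM (log2 fold change 4.58, SE 0.47, edgeR adjusted p = 0.00138). The granins Scg2 and Scg5 and the calcium channel gene Cacna1a rose by 8.50, 9.58 and 4.51. Resp18, a granule protein, had 16.7, 42.8, 43.9 and 24.3 CPM against 2 counts in all stem libraries (2855-fold, 95% counting interval 789.7 to 23586).

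Tuft cell markers were as clearly a part of the Paneth fraction's RNA. Of 45 tested, 43 rose and 1 fell (median log2 fold change 9.25, or 9.01 with genes at 0 in stem libraries at their lower bound). Members at 0 in the stem libraries could enter the test only through their Paneth counts. With no filter on low counts, 44 of 46 rose and 1 fell. Dclk1 (chr3:55242364-55539068, plus strand), the kinase that marks tuft cells, had 908, 952, 1133 and 675 CPM against 0, 0.501, 0.0590 and 0 CPM (log2 fold change 13.03, SE 0.97, edgeR adjusted p = 0.000492). Trpm5, the cation channel of their taste-like signalling, had 412, 406, 543 and 350.2 CPM against 0.239, 1.04, 0.472 and 2.67 CPM (log2 fold change 9.01, SE 0.74, edgeR adjusted p = 0.000650). Pou2f3, the factor required for the lineage, had 173, 196, 177 and 108 CPM against 1.91, 1.68, 1.09 and 0.283 CPM (log2 fold change 7.18, SE 0.39, edgeR adjusted p = 0.000156). For each of these genes the highest Paneth value was less than 2 times the lowest, and all were far above the stem values. Gfi1b, a repressor of the lineage, was more uneven, at 35.3, 9.37, 56.7 and 21.7 CPM. Avil, an actin-binding protein, ranged from 245 to 335 CPM and Siglecf, a sialic acid receptor, from 148 to 153 CPM, against 2 counts of Siglecf in all stem libraries (13124-fold, 95% counting interval 3632 to 1.08e+05).

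Enzymes of lipid mediator synthesis, an output of tuft cells, rose together. Alox5, Alox5ap, Ptgs1 and Hpgds had 93.3 to 157, 436 to 900.1, 93.0 to 124 and 201 to 467 CPM in the Paneth libraries. Alox5 and Ptgs1 had 0 counts in the stem libraries and were at least 7712-fold and 6257-fold higher. Alox5ap rose by 10.44 and Hpgds by 7.31 on the log2 scale (edgeR adjusted p = 8.58e-05 and 6.02e-05). Sucnr1, the succinate receptor, had 23.2, 18.0, 16.8 and 12.7 CPM against 0 counts and was at least 1018-fold higher. Kinase and adaptor genes better known from blood cells were part of the same list: Bmx (136 to 206 CPM), Sh2d7 (68.8 to 122 CPM) and Fyb (180.2 to 389 CPM). Of these, Bmx and Sh2d7 had 0 counts in all stem libraries. The member that fell was Ascl2, described above as a stem cell factor, and the 1 not past the test was Nradd, named after its values were seen.

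The octamer word ATGCAAAT, which factors of the POU class such as Pou2f3 are known to read, was found within 250 bases before the start, on either strand, in 5 of 38 tuft marker promoters (13.2%) and in 1.40% of all 10322. Windows of 40 bases around the word are shown for Sucnr1 and for Kctd12, a tuft marker at 1611 to 2797 CPM in the Paneth libraries that is named for its sequence, with the octamer in capitals (RefSeq, GRCm38.p6, gene strand, 5′ to 3′). The window of Sucnr1 has the word 48 bases before the start, and that of Kctd12 160 bases before it. No binding was measured here, and the other 33 promoters did not hold these letters in this window.
Sucnr1, chr3:60081805-60081844, plus strand: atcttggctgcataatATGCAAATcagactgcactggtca
Kctd12, chr14:102982774-102982813, minus strand: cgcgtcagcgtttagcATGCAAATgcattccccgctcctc

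The labelled Paneth fraction therefore held Paneth, enteroendocrine and tuft marker RNA in all 4 animals. Summed tuft markers were at 17327, 14748, 21164 and 12876 CPM in Paneth and 757, 522, 565 and 522 CPM in stem libraries. The BO58 Paneth library, lowest for defensins, was the highest of the 4 for hormones and for tuft markers. How much of any gene's difference came from each cell type was not tested.

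Goblet cell markers rose too, with more spread. Of 22 tested, 16 rose and 0 fell (median log2 fold change 3.08). Muc2, the gel-forming mucin, had 1413, 501, 104 and 804 CPM against 2.03, 11.1, 7.93 and 17.2 CPM (log2 fold change 5.84, SE 0.95, edgeR adjusted p = 0.00618). Tff3, a trefoil peptide, had 699, 564, 94.2 and 652 CPM against 28.0, 51.4, 79.6 and 79.3 CPM (log2 fold change 2.95, SE 0.71, edgeR adjusted p = 0.0235). Agr2, a disulfide isomerase needed for mucin folding, had 1929.9, 1303, 562 and 3546 CPM against 34.4, 148, 414 and 294 CPM (log2 fold change 3.29, SE 0.85, edgeR adjusted p = 0.0301). BO58 was the lowest Paneth library for all of these. Zg16 was at 0.236, 11.3, 4.83 and 403 CPM and Clca1 at 1.65, 1.22, 0.107 and 55.1 CPM in the Paneth libraries, each high in BP03 alone, and neither they nor Fcgbp (edgeR adjusted p = 0.142) passed. Ramp1 rose by 6.95, Ccl9 by 5.23 and Smim14 by 2.05. The number called higher was 11 without BN44, 10 without BO27, 20 without BO58 and 10 without BP03. Leaving an animal out ended the calls of Tff3 (0.0938) and Agr2 (0.104) without BN44, BO27 or BP03 (highest edgeR adjusted p in parentheses).

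Of 28 enterocyte markers tested, 7 rose and 4 fell (25% and 14.3%, against 15.4% and 10.4% of all genes). Their median log2 fold change, 0.02, had no stable sign: it was 0.38 without BN44, -0.13 without BO58, 0.23 with limma voom and -0.03 with no filter on low counts. Fabp1, a fatty acid carrier, had 132, 884, 82.9 and 292 CPM against 11.6, 180.1, 17.8 and 168 CPM (log2 fold change 2.21, SE 0.42, edgeR adjusted p = 0.0108), and the stem libraries of BO27 and BP03 held far more of it than those of BN44 and BO58. Apoa1 followed the same animals in the stem libraries (1.57, 103, 9.11 and 122 CPM) and did not pass (edgeR adjusted p = 0.725). Vil1, the brush border villin, had 223 to 268 against 99.5 to 112 CPM (log2 fold change 1.24, SE 0.17, edgeR adjusted p = 0.00373), and Anpep, a peptidase, rose by 1.14. Clca4b fell by 2.57. Alpi, Fabp2, Apoa4 and Apob did not pass. Over 3 animals, 3 to 7 enterocyte markers rose and 1 to 5 fell, with 3 higher and 1 lower without BN44.

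Markers of cells outside the epithelium were mostly near 0. Of the T cell genes, Cd3e, Cd3g, Cd8b1 and Cd4 were below 1 CPM in all 8 libraries and not tested. Of 11 leukocyte markers tested, 3 rose and 1 fell (27.3% and 9.09%, against 15.4% and 10.4% of all genes). Those that rose were Ptprc, Lyz2 and Kit, and Kit was given above as a receptor known from some secretory crypt cells. Which cells the RNA of these genes came from was not tested. Ptprc, which encodes the CD45 antigen stained in the sort, had 22.2, 25.5, 27.0 and 34.0 CPM against 0.0170, 0.0602, 0.855 and 0.126 CPM (log2 fold change 7.49, SE 0.86, edgeR adjusted p = 0.00197). Since Ptprc, like Cd24a, encodes an antigen stained for the sort, its difference is no finding. Lyz2 had 168, 56.9, 57.8 and 116 CPM against 0.392, 0.762, 3.07 and 1.01 CPM (log2 fold change 6.44, SE 0.76, edgeR adjusted p = 0.00214) and shares sequence with Lyz1. Cd14, an endotoxin co-receptor, fell by 1.41. The myeloid genes Csf1r and S100a8, named after their values were seen, were below 1 CPM in all 8 libraries. The median of the tested leukocyte markers turned from 1.05 to -0.87 without BN44 and to -0.02 without BO58. Of 6 stromal and endothelial markers tested, Vim rose (12.9, 80.5, 47.6 and 23.9 CPM against 0, 0, 0.354 and 0.661 CPM, edgeR adjusted p = 0.00444), while Col1a1, Col1a2, Col3a1 and Pdgfra were below 1 CPM throughout. Hbb-bs, a beta-globin of red blood cells, had 0 counts in stem libraries and 1.08, 2.08, 182 and 420.4 CPM in Paneth libraries, so it was high in BO58 and BP03 only. It was at least 9089-fold higher over the groups. The part of other cells in any result was not tested. Left with 3 animals, the test no longer called Cd14 (0.0850) without BN44 (highest edgeR adjusted p in parentheses).

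**Figure D4:**
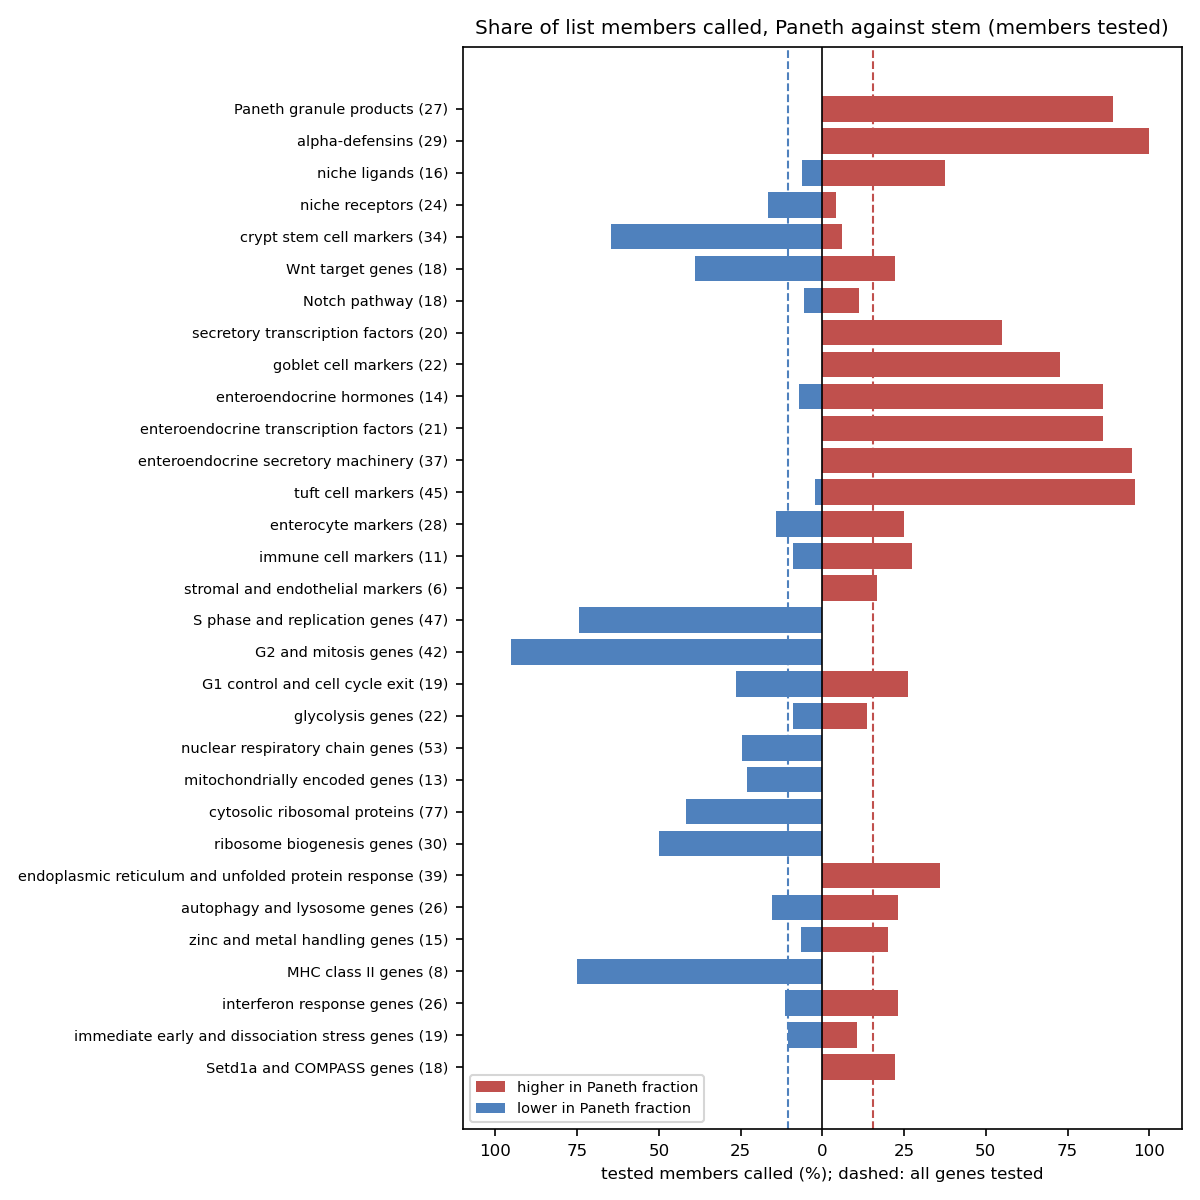
Share of the tested members of each gene list called higher (right) or lower (left) in the Paneth fraction, in percent, with the number of members tested. Dashed lines mark the share of all genes tested, 15.4% higher and 10.4% lower.

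Cell division genes were lower in the Paneth fraction. Of 47 S phase and replication genes tested, 35 fell and 0 rose (median log2 fold change -1.45). Of 42 G2 and mitosis genes, 40 fell and 0 rose (median -1.66). Mki67, the proliferation antigen, had 62.0, 71.9, 75.7 and 63.3 CPM in the Paneth libraries and 125, 214, 199.5 and 154 CPM in the stem libraries (log2 fold change -1.32, SE 0.18, edgeR adjusted p = 0.00347). Ccnb1, the mitotic cyclin, had 29.5 to 63.4 against 139 to 227 CPM (log2 fold change -1.94, SE 0.19, edgeR adjusted p = 0.00118). Its kinase partner Cdk1 fell by 1.78, Top2a, which untangles replicated DNA, by 1.53, and Ect2, which places the cleavage furrow, by 1.98. The replicative helicase subunits Mcm2, Mcm3, Mcm4, Mcm5 and Mcm7 fell by 1.56, 2.30, 1.29, 1.48 and 1.72. For each of these genes all 4 Paneth libraries lay below all 4 stem libraries, but none of the Paneth levels was near 0. Without BN44, 21 S phase genes fell, and without each of the others 29 to 33. For the mitosis genes the range was 35 to 39. Calls lost with 1 animal left out were Mcm2 (0.0582) without BN44 (highest edgeR adjusted p in parentheses).

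Of 19 regulators of the G1 phase tested, 5 rose and 5 fell (26.3% each, against 15.4% and 10.4% of all genes). Of the 6 inhibitors of cyclin-dependent kinases tested, 4 rose: Cdkn1a (p21) stood at 139, 226, 189 and 234 CPM in the Paneth libraries and 8.47, 3.71, 6.61 and 13.6 CPM in the stem libraries (log2 fold change 4.71, SE 0.38, edgeR adjusted p = 0.000625), and Cdkn1c (p57) at 35.1, 116, 38.9 and 46.9 CPM against 0.971, 0, 0.265 and 0.409 CPM (log2 fold change 7.22, SE 1.03, edgeR adjusted p = 0.00410). Cdkn1b and Cdkn2b, named after their values were seen, rose by 1.25 and 3.95. Cdkn2c (-0.43, edgeR adjusted p = 0.516) and Cdkn2d (0.39, edgeR adjusted p = 0.466), named likewise, did not pass. The retinoblastoma gene Rb1 rose by 2.19 (SE 0.23, edgeR adjusted p = 0.00151). Those that fell were Ccnd1 and Ccnd2, the D cyclins, by 0.95 and 1.20, the kinases Cdk4 and Cdk6 by 1.04 and 1.42, and Myc as given above. Ccnd3 did not pass (log2 fold change 0.11, edgeR adjusted p = 0.841). Left with 3 animals, the list had 4 higher calls and 3 to 5 lower ones. With 1 animal left out the test no longer called Cdkn1b (0.0976) without any 1 animal, Ccnd1 (0.180) without BN44, BO58 or BP03, Cdk4 (0.0550) without BN44 (highest edgeR adjusted p in parentheses).

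Genes of protein synthesis were lower by a modest amount. Of 30 ribosome biogenesis genes tested, 15 fell (50%, against 10.4% of all genes) and 0 rose (median log2 fold change -0.99). Npm1, the nucleolar chaperone, had 341, 377, 371 and 432 CPM in the Paneth libraries and 992, 803, 1081 and 1033 CPM in the stem libraries (log2 fold change -1.36, SE 0.20, edgeR adjusted p = 0.00453), and the groups were fully apart. Ncl, nucleolin, fell by 1.17, Nop56 by 1.95, Nop58 by 1.17, Dkc1 by 1.49 and Gnl3 by 1.42. Of 77 cytosolic ribosomal proteins, 32 fell (41.6%, against 10.4% of all genes) and 0 rose (median -0.84). Rpl3 fell by 1.32 and Rpl13a by 1.25, for example, while Rpl10 did not pass (edgeR adjusted p = 0.320). Ribosomal protein genes have many processed pseudogenes, and pseudogenes took a smaller share of the Paneth counts, as given above. Reads of such copies can be split, so these levels are uncertain. The number of ribosomal proteins that fell was 5 without BN44, 8 without BO27, 33 without BO58 and 9 without BP03, so that count depended on which animals were used.

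Of 53 nuclear respiratory chain genes tested, 13 fell (24.5%, against 10.4% of all genes) and 0 rose (median log2 fold change -0.63), for example Sdha, the flavoprotein of complex II, by 1.08 and Ndufs1, a core subunit of complex I, by 0.98. Ndufa1 had 145, 100.3, 30.6 and 83.2 CPM against 97.9, 61.8, 79.1 and 67.0 CPM and did not pass. The count of 13 became 0 without BN44, 2 without BO27 or BP03 and 20 without BO58. Of 13 mitochondrially encoded genes, 3 fell (mt-Nd4l, mt-Atp6 and mt-Atp8) and 0 rose. That was 23.1% lower, against 10.4% of all genes, and 0 fell without BN44, BO27 or BP03. The genes mt-Cytb (log2 fold change -0.74, edgeR adjusted p = 0.0964) and mt-Nd1 (-0.45, edgeR adjusted p = 0.235) did not pass. Of 22 glycolysis genes, 3 rose and 2 fell (13.6% and 9.09%, against 15.4% and 10.4% of all genes). Those that rose were Hk1 (2.43 to 6.65 against 0 to 0.102 CPM), a hexokinase, Pfkp by 1.70 and Pfkfb3, the producer of a phosphofructokinase activator, at 52.8, 84.3, 43.2 and 30.8 CPM against 0.136, 0.421, 0.914 and 0.0944 CPM (log2 fold change 7.35, SE 0.59, edgeR adjusted p = 0.000625). Tpi1 fell by 0.83, and the lactate carrier Slc16a1, named after its values were seen, by 0.72. Both lower glycolysis calls were lost without BN44, BO27 or BP03. Among these genes, the calls lost on leaving out an animal were mt-Nd4l (0.101), mt-Atp8 (0.0706) and Tpi1 (0.0962) without BN44, BO27 or BP03, Sdha (0.0564) and Ndufs1 (0.0520) without BN44, mt-Atp6 (0.158) and Slc16a1 (0.195) without any 1 animal (highest edgeR adjusted p in parentheses).

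MHC class II genes, which present antigen and are expressed by some crypt stem cells, fell in the Paneth fraction in 6 of 8 tested cases (median log2 fold change -1.49). H2-Ab1, a beta chain, had 230.1, 49.6, 118 and 272 CPM in the Paneth libraries and 906, 346, 369 and 589 CPM in the stem libraries (log2 fold change -1.88, SE 0.30, edgeR adjusted p = 0.00564). H2-Aa, the matching alpha chain, had 185, 39.4, 71.3 and 189 CPM against 569.5, 139, 219.9 and 294 CPM (log2 fold change -1.43, SE 0.24, edgeR adjusted p = 0.00737). BO27 was the lowest library of both fractions, and H2-Aa overlapped between groups while it was lower in the Paneth library of each of the 4 animals. H2-Eb1, H2-DMa and H2-DMb1 fell by 1.60, 1.59 and 1.38, and H2-DMb2 did not pass. The count was 6 with each animal left out.

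Of 26 interferon response genes tested, 6 rose and 3 fell (23.1% and 11.5%, against 15.4% and 10.4% of all genes), and 1 fell without BN44 or BO27. Irf7, Stat2 and Usp18 rose by 2.92, 2.34 and 5.77, and Ifi27 by 1.58. Oas2, a sensor of double-stranded RNA, had 18.6, 13.9, 40.8 and 26.8 CPM against 0 counts in the stem libraries and was at least 1517-fold higher. Ifit1, Ifit2, Ifit3 and Ifi44 did not pass. Of the immediate early genes, which respond within minutes to cell handling, 2 of 19 rose and 2 fell. That was 10.5% in each direction, against 15.4% and 10.4% of all genes. Fos had 666, 180.4, 121 and 199 CPM against 1038, 109.7, 234 and 174 CPM, highest in both fractions of BN44, and did not pass (edgeR adjusted p = 0.704). Fosb and Jund rose by 0.86 and 2.00, and Ier2 and Hspa8 fell by 0.98 and 0.99. The summed level of these genes in stem libraries was 5971 CPM in BN44 and 1765 to 2094 CPM in the others. Leaving an animal out ended the calls of Fosb (0.172), Jund (0.142) and Hspa8 (0.148) without BN44, BO27 or BP03, Ier2 (0.150) without BN44 or BO27 (highest edgeR adjusted p in parentheses).

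Autophagy and lysosome genes, which Paneth cells need for granule export, gave 6 higher and 4 lower of 26 tested (23.1% and 15.4%, against 15.4% and 10.4% of all genes). The lower count was 1 without BN44 or BP03, 2 without BO27 and 5 without BO58, and the higher count was 4 without BO27, BO58 or BP03. Atp6v0d1 and Atp6v1a, subunits of the proton pump that acidifies granules and lysosomes, rose by 2.78 and 1.45 (edgeR adjusted p = 0.00118 and 0.00293). Ulk1, which starts autophagy, had 31.3 to 45.3 against 11.5 to 13.2 CPM (log2 fold change 1.56, SE 0.22, edgeR adjusted p = 0.00394), and Gabarap and Map1lc3a, proteins of the autophagosome membrane, rose by 1.12 and 2.77. Atg16l1 and Atg5, known for their effect on Paneth granules, had 29.3, 20.7, 15.6 and 13.7 and 66.0, 28.3, 89.2 and 59.5 CPM in the Paneth libraries and did not pass (edgeR adjusted p = 0.567 and 0.273). Atg7, Becn1 and Map1lc3b also did not pass. Of 15 tested genes of zinc and metal handling, 3 rose and 1 fell (20% and 6.67%, against 15.4% and 10.4% of all genes). Slc30a2, a zinc transporter of granules, had 21.01, 10.7, 1.86 and 19.3 CPM against 6.05, 4.37, 6.90 and 5.41 CPM and did not pass (edgeR adjusted p = 0.355). Slc30a1, Slc39a14 and Slc40a1 rose by 1.35, 1.18 and 1.40, and the metallothionein Mt1 fell by 1.49. The higher count was 1 without BN44, 3 without BO58 and 0 without BO27 or BP03. Left with 3 animals, the test no longer called Map1lc3a (0.0972) and Slc40a1 (0.0763) without BO27, BO58 or BP03, Slc30a1 (0.101) and Slc39a14 (0.0991) without BN44, BO27 or BP03 (highest edgeR adjusted p in parentheses).

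Setd1a, the gene under study, encodes a methyltransferase of histone H3 lysine 4 in the COMPASS complex. In these heterozygous animals it had 6.74, 14.9, 6.22 and 10.6 CPM in the Paneth libraries and 3.88, 4.45, 6.84 and 6.64 CPM in the stem libraries, with overlapping groups (log2 fold change 0.77, SE 0.41, edgeR adjusted p = 0.204). A difference between fractions was thus not detectable at this depth and spread. Counts over the whole gene do not show whether the floxed part was deleted. Of 18 tested genes of the complex family, 4 rose and 0 fell (22.2% and 0%, against 15.4% and 10.4% of all genes). Kmt2a, Kmt2b and Kmt2c, methyltransferases of related complexes, rose by 1.79, 1.20 and 1.26, and the demethylase Kdm6a by 0.81. Setd1b and Kmt2d did not pass (edgeR adjusted p = 0.259 and 0.0594). The count of 4 became 2 without BN44, BO27 or BP03 and 6 without BO58. Calls lost with 1 animal left out were Kmt2b (0.0818) and Kdm6a (0.141) without BN44, BO27 or BP03 (highest edgeR adjusted p in parentheses).

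Among called genes with a mean of at least 5 CPM and the same sign in all 4 animals, the 12 of largest rise included the tuft markers Bmx, Alox5, Ptgs1, Sh2d7 and Siglecf and the hormones Sst, Iapp and Gip. Hbb-bs, given above, Cd300lf and Asic5 were also among them. Cd300lf, an inhibitory receptor, had 64.6, 72.7, 51.4 and 53.3 CPM, and Asic5, a bile acid-sensitive ion channel, had 39.8, 14.3, 141 and 38.8 CPM. Both had 0 counts in the stem libraries and were at least 3476-fold and 3694-fold higher. No granule product or alpha-defensin was among the 12.

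The 12 genes of largest fall included enzymes and signalling genes of the stem fraction. Cyp2c55, a cytochrome P450 of arachidonic acid metabolism, had 0, 0.136, 0 and 0.220 CPM against 10.3, 27.9, 3.69 and 27.3 CPM (log2 fold change -7.75, SE 0.64, edgeR adjusted p = 0.000650). Cyp2e1, which oxidises small molecules such as ethanol, had 6.93, 23.99, 11.5 and 7.78 CPM against 103, 206, 172 and 169 CPM (log2 fold change -3.83, SE 0.27, edgeR adjusted p = 0.000401). The groups were apart for both enzymes. Esr1, the estrogen receptor, had 2.86 to 4.81 against 39.96 to 49.8 CPM (log2 fold change -3.46, SE 0.25, edgeR adjusted p = 0.000406), and Nr2e3, a nuclear receptor known from the retina, 2.93 to 7.03 against 35.0 to 59.5 CPM (log2 fold change -3.51, SE 0.38, edgeR adjusted p = 0.00163). The secreted vessel factor Angpt2 fell by 4.02, the Ras effector Rassf5 by 3.41, the interferon-induced GTPase Tgtp2 by 3.52, the carboxylesterase Ces1d by 3.36, the glutamate transporter Slc1a2 by 3.13 and the histamine-degrading Hnmt by 3.12. Gkn3, given above, was also among them. With 1 animal left out the test no longer called Hnmt (0.0796) without BN44 or BP03 (highest edgeR adjusted p in parentheses).

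The design also asks whether this contrast was the same in knockout animals. In a fit of 16 libraries (4 of each fraction and genotype), 0 of 18393 genes (0.0%) had a Paneth against stem difference that itself differed between hom and het by edgeR. The smallest adjusted p was 0.420, 864 genes had an unadjusted p below 0.05 (468 higher and 396 lower in hom), and DESeq2 called 85 (61 higher and 24 lower). Of the 4191 genes called in het animals, 3272 (78.1%) were called in hom animals with the same sign and 5 with the opposite sign, where 28.8% of the genes in the 16-library fit were called in hom. For Lyz1 the log2 fold change was 7.61 in het and 7.69 in hom animals, for Defa24 7.55 and 8.33, and for Wnt3 5.23 and 4.92. For Lgr5 it was -1.59 and -1.63, for Olfm4 -2.76 and -2.65, for Gip 13.28 and 15.52, and for Dclk1 12.94 and 10.96. The difference of none of these 7 genes passed the test. The difference of smallest edgeR p was that of Cyp2c55 (-7.69 in het and -0.96 in hom, edgeR adjusted p = 0.420). The lactase gene Lct, named after its values were seen, was at -2.06 and 5.51 (edgeR adjusted p of the difference 0.934). The median of 31 tested alpha-defensins was 9.06 in het and 9.54 in hom, that of 34 stem cell markers -1.47 and -1.44, and that of 28 enterocyte markers 0.01 and 1.42. Nuclear respiratory chain genes gave -0.62 and -0.16, with 25 lower calls in het and 15 in hom in this fit. The lack of a call does not show that the contrast was equal in both genotypes.

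**Figure D5:**
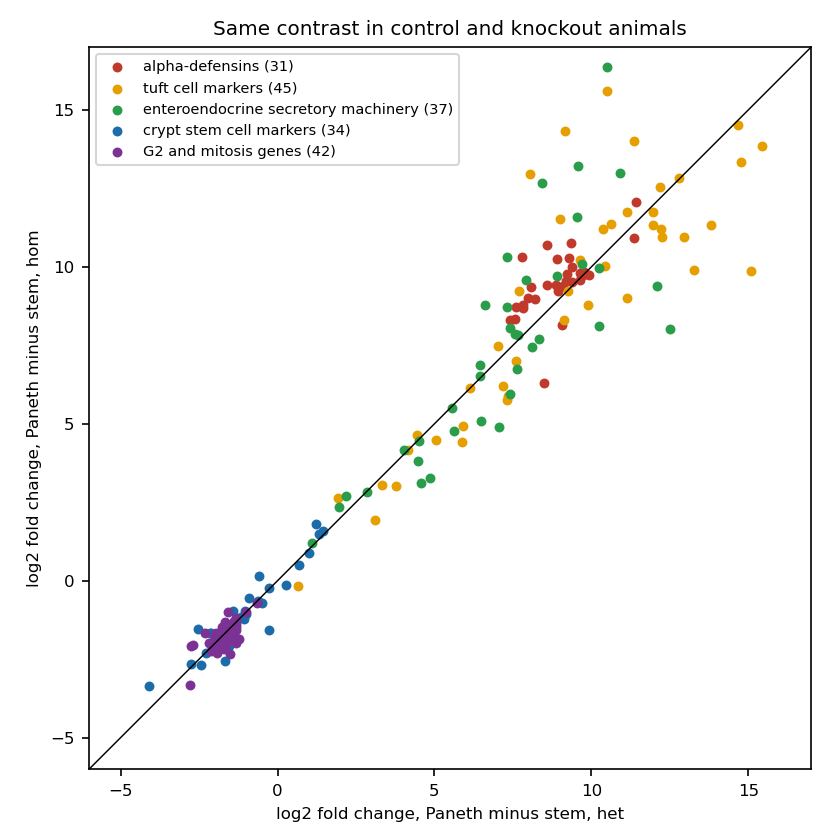
Log2 fold change (Paneth minus stem) in hom animals against that in het animals, 1 point per gene of 5 lists, with the line of equal change. The points lie along the line in both directions, and alpha-defensins and endocrine machinery lie above 0 in both genotypes, as do the tuft markers other than Ascl2 and Nradd.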

How the data were processed

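The deposited table holds raw counts per gene for 24 libraries, each the cells of 1 sorted fraction of 1 mouse. Per the file headers, the authors counted fragments of read pairs with featureCounts 2.0.1, unstranded, at a mapping quality of at least 1. The submitters' processing notes name bcl2fastq 2.20.0, mm10 and Ensembl 98 gene models; which aligner version was used is not stated there. Reads of near-identical defensins, and of overlapping or antisense genes, may have been split or lost by this counting.

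The 92 spike-in features (at most 6 counts in a library) were left out, and symbols and positions came from GENCODE M21 (55154 of 55421 genes matched). Depth was 24726282 to 47052856 counts in the 8 libraries compared. The comparison used edgeR 4.0.16 in R 4.3.3 (TMM scaling, filterByExpr by fraction, quasi-likelihood F test) with the animal as block, and genes were called at a Benjamini-Hochberg adjusted p below 0.05. Standard errors were derived from the fold change and its F statistic. The genotype comparison tested the fraction by genotype term over 16 libraries. Levels are TMM-scaled CPM, plotted as log2 with a pseudocount of 0.5 CPM, and folds against groups at 0 used a floor of 3 counts over the group. Floors and intervals cover counting error only. The scripts were tested on simulated data.

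The block was kept because both fractions came from the same animals. Deviations from the fraction means correlated between libraries of the same animal at 0.248, 0.079, -0.045 and 0.133. The p-values weigh the spread of the fraction difference over these 4 animals, with variance estimates that draw on all genes. For a gene with 0 counts in all stem libraries, the block takes up the differences between animals. Its p-value then says little of their spread. Hbb-bs, at 1.08 to 420.4 CPM in the Paneth libraries, had an SE of 0.56 (edgeR adjusted p = 0.000785).

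Members and gene lists were chosen with earlier results of these data known. Genes named were, in each direction, the 12 of largest fold change among those called with a mean of at least 5 CPM and the same sign in 4 of 4 animals (unnamed and predicted genes and pseudogenes apart), the first 6 members and the 4 of smallest p of each list, every member of the 7 lists of niche ligands, niche receptors, alpha-defensins, granule products, hormones and secretory and enteroendocrine factors, and Setd1a. Some genes that this rule names are not reported here. Others are said to be named after their values were seen. Alternatives were no block, DESeq2 1.42.0, limma 3.58.1 voom, other size factors, library sizes without granule genes, other filters, all 24 libraries and leaving out each animal. The transit-amplifying libraries entered only the fit of all 24.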

Additional observations from a re-analysis of the deposited data

Results flagged for a closer look

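In each group of 4 libraries, a library whose gap to the nearest of the others was large beside the group's range (past the 95% limit of Dixon's test) stood apart. Chance alone gives this in about 1 of 20 groups. Of 70 list sums and library measures 6 stood apart, and of 469 groups of a gene named in the text with at least 5 CPM in a library 41 did. The BN44 stem library was above the other 3 stem libraries in the summed level of enteroendocrine hormones (263 CPM against 4.42 to 6.07 CPM), secretory transcription factors (1671 against 814 to 904 CPM), G1 control genes (1919 against 1139.8 to 1234 CPM) and immediate early and stress genes (5971 against 1765 to 2094 CPM). The summed interferon response was low in the BO27 stem library (3394 against 4372 to 4447 CPM). The summed hormones were high in the BO58 Paneth library (9373 against 6299.8 to 6808 CPM).

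Single genes stood apart as follows, with the range of the other 3 libraries of the same fraction. BN44 was the high stem library for Adm (17.5 CPM against 0.560 to 1.56 CPM), Areg (85.2 CPM against 1.86 to 2.71 CPM), Cck (25.3 CPM against 0.0315 to 1.04 CPM), Chgb (6.59 CPM against 0.0629 to 1.04 CPM), Elf3 (1057 CPM against 195 to 327 CPM), Fos (1038 CPM against 109.7 to 234 CPM), Gcg (213 CPM against 0 to 0.724 CPM), Hbegf (179 CPM against 16.6 to 19.8 CPM), Ier2 (409.8 CPM against 80.7 to 121 CPM), Map1lc3a (6.95 CPM against 0.629 to 1.70 CPM), Mt1 (272 CPM against 149 to 166 CPM) and Neurod1 (6.83 CPM against 0 to 1.06 CPM). The BN44 stem library was low for Ern1 (3.49 CPM against 6.08 to 6.40 CPM), Gata4 (27.9 CPM against 32.8 to 33.8 CPM) and Slc1a2 (13.9 CPM against 26.3 to 27.8 CPM). BN44 was the high Paneth library for Adm (8.06 CPM against 0 to 0.181 CPM), Ern2 (33.5 CPM against 3.68 to 7.87 CPM), Fos (666 CPM against 121 to 199 CPM) and Stat2 (31.2 CPM against 18.8 to 19.2 CPM). The BN44 Paneth library was low for Jag2 (3.25 CPM against 5.84 to 6.29 CPM). The BO27 stem library was low for Dmbt1 (300.1 CPM against 458 to 470.5 CPM). BO27 was the high Paneth library for Cdkn1c (116 CPM against 35.1 to 46.9 CPM), Fzd5 (78.4 CPM against 49.3 to 54.1 CPM), Gabarap (362 CPM against 343 to 346 CPM), Insm1 (146 CPM against 55.6 to 65.9 CPM), Lrp6 (93.0 CPM against 48.5 to 51.2 CPM) and Ucn3 (45.7 CPM against 3.11 to 4.24 CPM). BO58 was the high stem library for Dll1 (25.3 CPM against 17.1 to 18.0 CPM). BO58 was the high Paneth library for Alox5ap (900.1 CPM against 436 to 497 CPM), Hhex (38.2 CPM against 9.36 to 13.1 CPM) and Isl1 (269 CPM against 114 to 127 CPM). The BO58 Paneth library was low for Gfi1 (0.608 CPM against 5.75 to 6.59 CPM). BP03 was the high stem library for Ccl9 (16.9 CPM against 3.54 to 5.57 CPM), Slc40a1 (15.5 CPM against 3.89 to 4.65 CPM) and mt-Nd4l (55.6 CPM against 26.2 to 30.8 CPM). The BP03 stem library was low for Ces1d (81.9 CPM against 125 to 129 CPM). BP03 was the high Paneth library for Clca1 (55.1 CPM against 0.107 to 1.65 CPM), Fabp6 (27.2 CPM against 0.429 to 1.18 CPM), Nr2e3 (7.03 CPM against 2.93 to 3.39 CPM), Pyy (132 CPM against 0.707 to 3.94 CPM) and Zg16 (403 CPM against 0.236 to 11.3 CPM). Of the 41 gene groups, 15 were in the BN44 stem library. No cause was tested.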

How the results depend on the processing

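The counts of 2497 higher and 1694 lower genes became 2809 and 1791 with no animal block, 3716 and 2730 with DESeq2, 3130 and 2092 with limma voom, 3785 and 3307 in a fit of all 24 libraries, and 1509 to 2285 and 589 to 1792 with 1 animal left out (lowest without BN44, highest without BO58). DESeq2's size factors in edgeR, library sizes without granule genes, no filter on low counts and a minimum mean of 5 CPM kept both counts within 1.5 times. DESeq2 called 85 genes for the difference between genotypes, and edgeR 0 without the block (996 at an unadjusted p under 0.05), at a minimum of 5 CPM (553) or with any 1 animal left out (738 to 904, smallest adjusted p 0.0581). Without the block, the medians were -0.57 for Wnt targets, 6.43 for enteroendocrine factors and 6.68 for their secretory machinery. Voom gave -0.67 for Wnt targets and 6.82 for enteroendocrine factors, and DESeq2 8.11 for the machinery and 9.62 for tuft markers. Wnt targets were at -0.32 with no filter and -0.45 with all 24 libraries. A minimum of 5 CPM gave 5.13 for immune markers, 7.74 for stromal markers and -1.11 for ribosome biogenesis. With 1 animal left out, the medians ranged from -0.89 to -0.41 for Wnt targets, 6.92 to 8.30 for enteroendocrine factors, 6.81 to 8.78 for the machinery, 9.30 to 9.74 for tuft markers, -0.87 to 2.31 for immune markers (below 0 without BN44 or BO58, -0.02), -1.13 to -0.90 for ribosome biogenesis and -0.0188 to 0.25 for zinc genes. Of 218 genes named in the text and called, 170 held in all settings that gave a value, 16 lost the call without the block and 0 turned sign. Among the named genes, signs turned only for those that had not passed: Alpi was at 0.29 without the block, 0.32 with voom, 5.03e-05 with the other size factors and 0.43 with all libraries, and Mnx1 at -0.00188 without granule genes and -0.0400 with no filter. With 1 animal left out, Alpi ranged from -1.14 to 1.03, Apoa1 -1.25 to 0.36, Ccnd3 -0.21 to 0.43, Cdx2 -0.71 to 0.11, Fos -0.47 to 0.0813, Hspa5 -0.0170 to 0.14, Ifi44 -0.83 to 1.49, Map1lc3b -0.35 to 0.0381, Mnx1 -0.47 to 0.51, Ndufa1 -0.15 to 0.52, Znrf3 -0.0363 to 0.57. The cause of these shifts was not tested. A gene with few counts is measured less precisely, and the filter on low counts left out the thinnest genes. No alternative was added after seeing the data.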

Other observations

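Outside the gene lists, some abundant RNAs also differed, and these genes were chosen for mention after their values were seen. Malat1, a nuclear long noncoding RNA, stood at 6323 ± 1631 CPM in the Paneth and 1139 ± 298 CPM in the stem libraries (mean ± SD, n = 4, edgeR adjusted p = 0.00120). Adh1, an alcohol dehydrogenase, stood at 3372 ± 2091 against 469 ± 59.6 CPM (edgeR adjusted p = 0.00427), and the chemokine Ccl6 at 2242 ± 866 against 20.7 ± 16.5 CPM (edgeR adjusted p = 0.00144). Tm4sf4, a tetraspanin-like membrane protein, stood at 1194 ± 351 against 39.4 ± 15.3 CPM (edgeR adjusted p = 0.000785). Atp2a3, a calcium pump of the endoplasmic reticulum, stood at 285 ± 73.9 against 2.01 ± 0.859 CPM (edgeR adjusted p = 6.02e-05), and Plcg2, a phospholipase C, at 209.7 ± 33.6 against 5.62 ± 0.783 CPM (edgeR adjusted p = 8.58e-05). All of these were higher in 4 of 4 animals.

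In the other direction, Oat, Cps1 and Kcne3 were lower in the Paneth fraction. Oat, ornithine aminotransferase, stood at 4821 ± 133 CPM in the stem and 1077 ± 270 CPM in the Paneth libraries (log2 fold change -2.20, SE 0.26, edgeR adjusted p = 0.00206). Cps1, the carbamoyl phosphate synthetase of the urea cycle, stood at 2339 ± 324 against 820.2 ± 179.7 CPM (log2 fold change -1.53, SE 0.23, edgeR adjusted p = 0.00510). Kcne3, a potassium channel subunit, stood at 819 ± 121 against 217 ± 44.2 CPM (log2 fold change -1.93, SE 0.19, edgeR adjusted p = 0.00118). These genes were lower in 4 of 4 animals.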
